A study of Homo sapiens with 12 samples.

Results

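Untreated cells of U251 and U87, established human glioma lines, were set against each other across all expressed genes. The libraries were chosen by their labels, the 3 control libraries of U251 and the 3 control libraries of U87, which are 6 of the 12 libraries of the series. Both groups carry the labels brain, Glioma and day 9, and their treatment label names only a medium (10%DMEM), with no solvent, passage number, seeding density or supplier given. The other 6 libraries are the same lines after 24 h of artesunate, labelled 180 µM in U251 and 24.08 µM in U87. They helped to estimate the spread and served for a repeat of the line comparison at the end. Polyadenylated RNA of whole cultures was sequenced, and for 17150 of 58302 listed genes there were enough counts for a test. Whether the replicates were separate cultures is not labelled, so the p values may rest on technical variation alone. Each group is 1 line, so a difference belongs to these cultures and not to a tumour class.

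Glioblastoma cell lines keep parts of the programmes of glial and neural progenitor cells, such as the transcription factor SOX2 and the filament proteins nestin and GFAP, and gain others that are shared with connective tissue cells. Tumours of this kind are sorted by their transcripts into proneural, classical and mesenchymal classes, the last being rich in matrix, wound-healing and inflammatory genes. Loss of the 9p21 locus, which holds the cell-cycle inhibitors CDKN2A and CDKN2B beside the metabolic gene MTAP, is among the most frequent lesions of glioblastoma.

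The lines differed at most genes. Of the 17150 tested genes 11115 (64.8%) passed edgeR's quasi-likelihood test at 0.05 after Benjamini-Hochberg adjustment and are named called below, 5573 (32.5%) higher in U251 and 5542 (32.3%) higher in U87. A difference of at least 4-fold was called for 3400 genes (19.8%), 1618 in favour of U251 (9.43%) and 1782 in favour of U87 (10.4%). The 3 libraries of one line did not overlap with the 3 of the other for 12612 genes (73.5%), and the median absolute log2 difference was 0.75. The libraries held 14997545 to 17314284 counts and 3.74 to 4.92% mitochondrial counts. Levels are given as CPM, a gene's count scaled by its library's total count. Across tested genes Pearson's r of log2 CPM was 0.985 to 0.987 between libraries of a line and 0.747 to 0.757 between lines. For r alone, CPM were also scaled by edgeR's TMM factors, with a prior count of 2. Counts of list members below are to be read against 32.5% of all tested genes higher in U251 and 32.3% in U87. Their counts at 4-fold are to be read against 9.43% in favour of U251 and 10.4% in favour of U87. Log2 differences below are U251 minus U87, given with their standard error, so that a negative value is higher in U87. CPM are compared between the lines for 1 gene at a time. Fold bounds against a line without a count are computed at 3 counts per library and, like the 95% exact binomial intervals of ratios, cover counting error only.

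**Figure D1:**
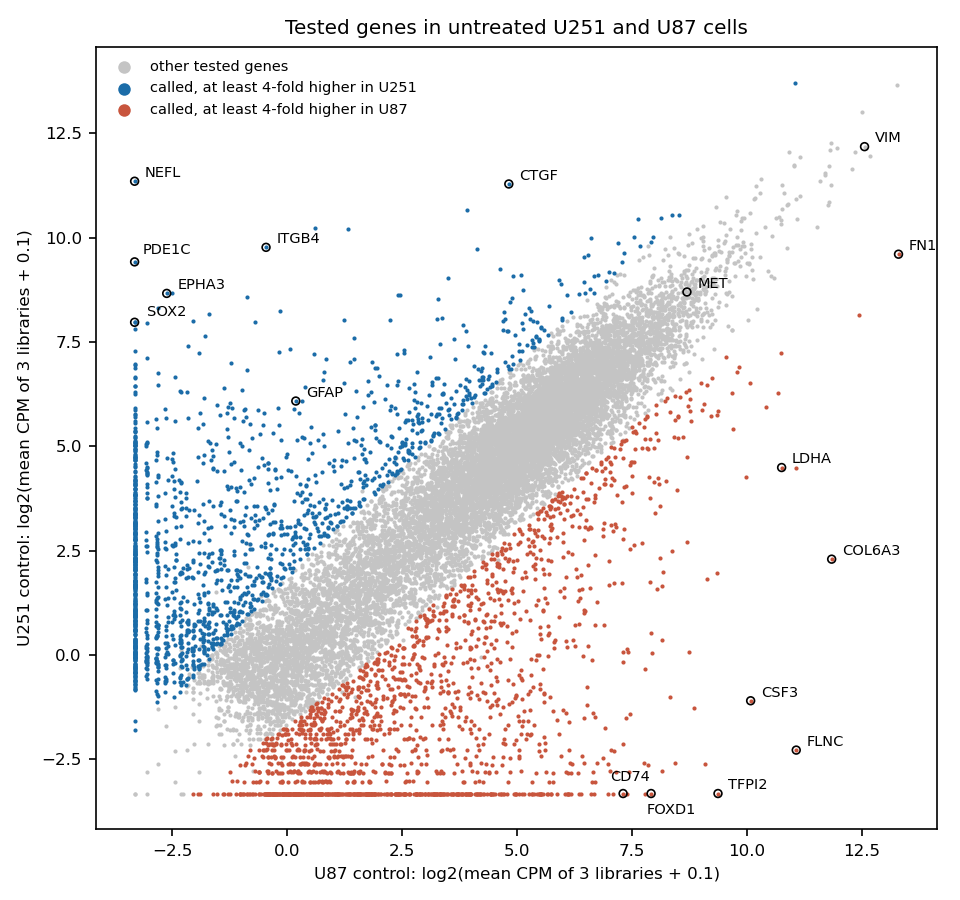
Each point is 1 of the tested genes, with the mean of 3 libraries as log2(CPM + 0.1) in U87 controls on the x axis and in U251 controls on the y axis. Blue and red mark genes called at an at least 4-fold difference, and ringed points are named: NEFL, PDE1C and SOX2 lie on the line of 0 counts in U87, TFPI2, FOXD1 and CD74 on that of U251, and MET lies on the diagonal.

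Several abundant transcripts of U251 had no count in U87. NEFL, the light neurofilament protein of axons (ENSG00000277586, chromosome 8, 24950955 to 24957110, GRCh38), had 2632, 2606 and 2614 CPM in the 3 U251 libraries and 0 counts in each U87 library, which makes it at least 14273-fold higher in U251 (adjusted p = 7.2e-11). PDE1C, a phosphodiesterase that breaks down cyclic nucleotides (ENSG00000154678, chromosome 7, 31751179 to 32299329), had 677, 700.4 and 679 CPM and 0 counts in U87 (at least 3738-fold). The 3 libraries of U251 lay close together at both genes. The heparan sulfate proteoglycan GPC4 (253 ± 7.22 CPM, mean ± SD, n = 3), the matrix peroxidase PXDN (224 ± 14.5), the ubiquitin ligase adaptors KLHL9 (157 ± 6.8) and KLHL4 (125 ± 2.74) and the basement membrane collagen chain COL4A1 (124 ± 7.73) were likewise at 0 counts in U87. Their lower bounds ran from 674-fold for COL4A1 to 1377-fold for GPC4.

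Other genes were abundant in U87 and at or near 0 counts in U251. TFPI2, a secreted inhibitor of serine proteases (ENSG00000105825, chromosome 7, 93885397 to 93890991), had 692, 647 and 649 CPM in the U87 libraries and 0 counts in U251 (at least 3464-fold, adjusted p = 2.8e-09). FLNC, an actin crosslinking filamin, had 1956, 2348 and 2169 CPM in U87 and 0.133, 0.184 and 0 CPM in U251, or 5 counts in all, a ratio of 20281-fold (95% interval 8690.4 to 62463). Further genes at 0 counts in U251 were the forkhead factor FOXD1 (242 ± 15.4 CPM), the intestinal protease TMPRSS15 (219 ± 14.5), the matricellular protein SMOC1 (167 ± 4.73) and the TNF receptor TNFRSF1B (126 ± 9.04). The largest differences were named only among genes at which the libraries of the lines did not overlap, which held for 73.5% of all tested genes.

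Counted over all listed genes, 316 had at least 1 CPM in every U251 library and 0 counts in all 3 of U87, and 290 had the reverse pattern. Of the 316 genes 257 were protein-coding, 26 were lincRNA or antisense genes and 21 were pseudogenes, and their mean level ran from 1.12 to 2617 CPM with a median of 6.62. Among the 290 of U87 were 226 protein-coding, 42 lincRNA or antisense genes and 15 pseudogenes, with levels of 1.12 to 663 CPM and a median of 5.86. In the artesunate libraries of the line that lacked them, 271 of the 316 and 211 of the 290 were again at 0 counts. Such genes passed the filter on low values through the line that held them and so had to differ. A count of 0 bounds the level at 0.173 to 0.200 CPM per library (3 counts) and does not show that a gene is silent or missing.

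Markers of neural lineages were split between the lines, with more of the progenitor and neuron markers higher in U251. Among 16 of 20 listed neural stem and progenitor markers that were tested, 11 were higher in U251, 2 in U87 and 3 were not called (median log2 difference 1.25 against -0.003 over all tested genes). SOX2, the factor that holds neural progenitors undifferentiated, had 264, 252 and 237 CPM in U251 and 0 counts in every U87 library (at least 1370.2-fold, adjusted p = 9.6e-10). The POU factor POU3F2 (71.2 against 0.184 CPM), the Notch effector HES1 (25.9 against 1.26) and the RNA-binding protein MSI2 (171 against 51.1) were also higher in U251. NES, the progenitor filament nestin, had 148, 148 and 141 CPM in U251 and 65.8, 77 and 75.4 in U87, a log2 difference of 1.02 ± 0.12 (adjusted p = 1.3e-05), with no overlap. The members higher in U87 were FUT4, the enzyme that makes the stem cell antigen CD15 (-0.47 ± 0.15), whose call was lost when U251 library 3 (adjusted p = 0.054) or U87 library 2 (0.052) was left out, and PROM1, which encodes CD133 and stood at only 0.332 CPM (0.0222 in U251). The call of PROM1 was lost without U251 library 2 or 3 or U87 library 3 (adjusted p 0.071 to 0.10).

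The astrocyte list went both ways. GFAP, the intermediate filament of astrocytes, had 46.5, 61.1 and 95.9 CPM in the U251 libraries and 1.73, 0.735 and 0.643 in U87 (log2 difference 6.03 ± 0.37, adjusted p = 4.6e-08). U251 library 3 was the highest of its group, and even the lowest U251 library was far above the highest of U87. FABP7, the fatty acid binding protein of radial glia (17.1 against 0.478 CPM), and SOX9, a factor of glial fate (78.9 against 6.78), were also higher in U251. CHI3L1, a secreted glycoprotein of reactive glia, had 18.6, 21 and 23.9 CPM in U87 and 0 counts in U251 (at least 111-fold), and the brain aldolase ALDOC had 86.4 against 0.882 CPM. In all, 4 of 12 tested markers were higher in U251, a share near the 32.5% of all tested genes, and 6 in U87, where the share of all tested genes was 32.3%. AQP4, the water channel of astrocyte endfeet, was at 0 counts in both lines, and S100B did not pass the filter (0.66 and 0.137 CPM), so these 2 astrocyte markers were at or near 0 in both lines, while GFAP and SOX9 were not in U251. In RNA of whole cultures, fewer cells of a type and less RNA per cell cannot be told apart.

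Neuron and oligodendrocyte markers gave the same mixed picture of single genes. 6 of 11 tested neuron markers were higher in U251, with the microtubule protein MAP2 at 168 against 15.2 CPM and the synaptic vesicle protein SYT1 at 35.7 against 2.96, while SNAP25, a protein of vesicle fusion, was higher in U87 (26.5, 21 and 21.9 CPM against 0.867, 1.35 and 1.33, log2 difference -4.25 ± 0.21). DCX, STMN2, ELAVL4 and INA, which mark neurons proper, were at 0 counts in both lines. The adhesion protein CNTN1 (37.3 ± 9.24 CPM in U251, 0 counts in U87) led the oligodendrocyte lineage list, of which 5 of 9 tested genes were higher in U251 and 2 in U87. CSPG4, the NG2 proteoglycan of oligodendrocyte progenitors and pericytes, had 259, 309.8 and 281 CPM in U87 and 0.6, 1.6 and 1.33 in U251, a ratio of 238-fold (95% interval 183 to 315). OLIG2, the factor that specifies oligodendrocytes, was low in both at 0.0667, 0.123 and 0.253 CPM in U251 and 3.75, 2.27 and 3.73 in U87 (log2 difference -4.35 ± 0.41), and SOX10, OLIG1, MOG and MAG had no count.

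Mesenchymal and fibroblast markers were mostly higher in U87, at 13 of 20 tested genes against 5 in U251 (median log2 difference -1.17), beside 32.3% and 32.5% of all tested genes. FN1, the matrix protein fibronectin, had 9535, 10381 and 10361 CPM in U87 and 775, 794 and 768 in U251 (-3.67 ± 0.08). COL1A1, the main chain of type I collagen, had 1030.4, 1044 and 976 against 18.9, 19 and 19.7 CPM (-5.70 ± 0.24), and FAP, the membrane protease of activated fibroblasts, had 60.4, 50.3 and 49.8 CPM against 0 counts (at least 279.6-fold). The transcription factors SNAI2 (277 against 11.8 CPM), TWIST1 (75.8 against 15.7) and PRRX1 (171 against 62.5), which drive mesenchymal fate, were higher in U87 as well. Exceptions included THY1, a membrane glycoprotein of fibroblasts and neurons, at 40.2 ± 4.07 CPM in U251 and 0 counts in U87, N-cadherin CDH2 (221 against 47.8) and the hyaluronan receptor CD44. CD44 had 1028, 1027 and 1039 CPM in U251 and 555, 493 and 549 in U87 (0.98 ± 0.07, adjusted p = 1.2e-07). VIM, the mesenchymal filament vimentin, was abundant in both, at 3777, 5677 and 4495 CPM in U251 and 6299.9, 5966 and 5867 in U87 (-0.35 ± 0.14, adjusted p = 0.045). That call was lost without U251 library 1 or 3 or any 1 of the U87 libraries, with adjusted p from 0.051 to 0.14.

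**Figure D2:**
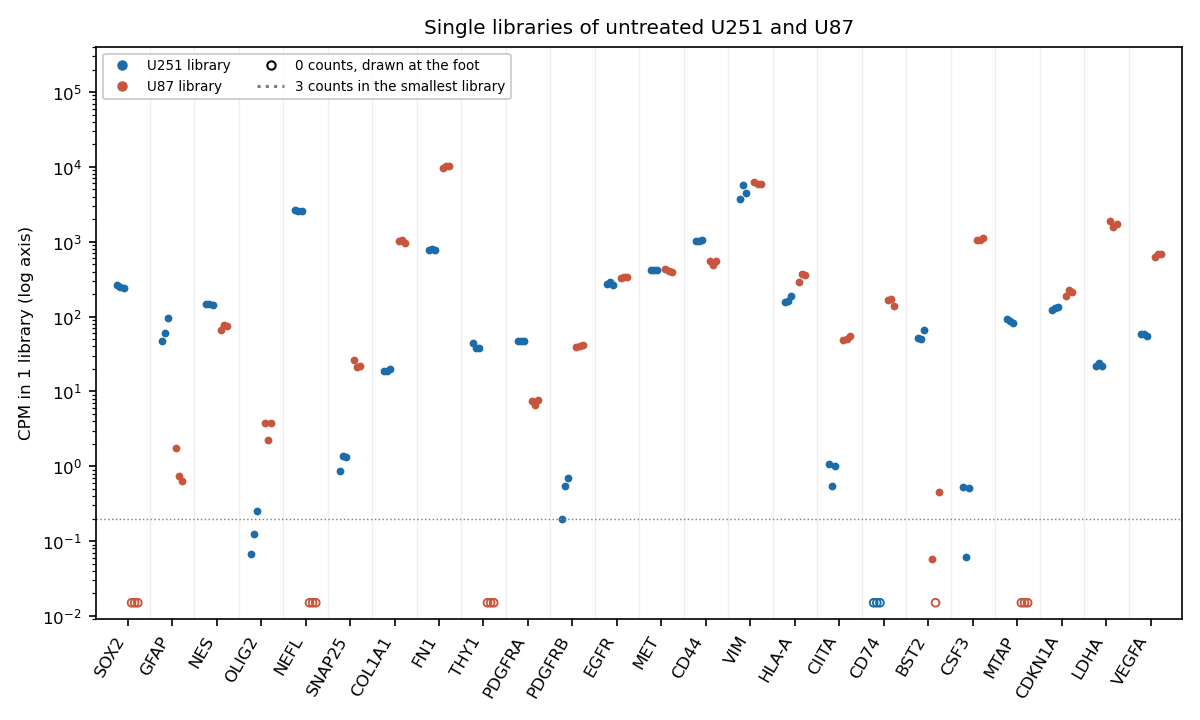
CPM on a log axis in the 6 single libraries for 24 genes, U251 in blue and U87 in red, with open circles at the foot for libraries with 0 counts and a dotted line at 3 counts in the smallest library. The libraries of a line lie close together at most genes, GFAP and BST2 spread more, and MET and the vimentin gene VIM show the lines at close levels.

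Markers of other cell types were looked for as a check of the cultures. Of 16 leukocyte and microglia markers 3 were tested and 8 had no count in either line, including AIF1, CX3CR1, TYROBP, CD3E and MS4A1. The pan-leukocyte gene PTPRC stood at 0.0631 CPM in U251 and 0.103 in U87. The summed level of that list was 2.41 to 4.42 CPM in the U251 libraries and 76.2 to 120.5 in those of U87, where it came almost wholly from CD68, a lysosomal protein (56.1, 77.5 and 95.4 CPM in U87 against 1.73, 2.58 and 0.317), and CSF1R, the receptor of the growth factor CSF1 (21 against 0.684). Endothelial markers were split 3 to 3 among 8 tested genes, with the VEGF receptor KDR higher in U251 (1.34 ± 0.13). Epithelial markers were low apart from keratin 18 in U251 (KRT18, 33.2, 19.6 and 27.8 CPM against 0.751, 0.613 and 1.29). The melanocyte and neural crest list held 5 tested genes of 12, and only TFAP2A was called (2.28 ± 0.16).

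Glioma class genes were compared next. Of 24 mesenchymal signature genes 15 were higher in U87 and 5 in U251, with a median of -1.01. TGFBI, a matrix adhesion protein (5533 against 286 CPM), the collagen crosslinker LOX (522 against 58.6) and the AP-1 subunit FOSL1 (538 against 64.1) were among those of U87. CEBPB and STAT3, factors known as drivers of that class, lay on opposite sides, CEBPB higher in U87 (-2.60 ± 0.13) and STAT3 in U251 (1.11 ± 0.07). PLAU, the urokinase that activates plasminogen, was an exception, with 415, 387 and 397 CPM in U251 and 74.9, 87 and 84 in U87 (2.31 ± 0.09, adjusted p = 7.6e-10). Proneural signature genes were tested at 10 of 16, 6 of them higher in U251 and 2 in U87, the latter being OLIG2 and the ATP receptor P2RX7 (19.4 against 1.12 CPM). Classical signature genes were 8 to 4 among 14. In that list SMO, the Hedgehog signal transducer, had 12.8 ± 1.9 CPM in U251 and 0 counts in U87, while GLI2, a transcription factor of the same pathway, had 41 ± 0.577 CPM in U87 and 0 counts in U251. The GLI target GLI1 followed GLI2, with 7.64 CPM in U87 and 0.146 in U251.

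Receptors and locus genes that recur in glioma were close or moderately apart, with exceptions. EGFR, the epidermal growth factor receptor (ENSG00000146648, chromosome 7, 55019021 to 55211628), had 273, 288 and 268 CPM in U251 and 327, 337 and 338 in U87 (-0.25 ± 0.07, adjusted p = 0.0052), a small difference without overlap. MET, the receptor of hepatocyte growth factor, had 417, 414 and 417 CPM in U251 and 438, 409 and 398 in U87 (0.03 ± 0.08, adjusted p = 0.77), and the libraries overlapped. PDGFRA was higher in U251 (46.8, 47.7 and 47 CPM against 7.45, 6.68 and 7.59, 2.73 ± 0.17) and PDGFRB, the other receptor of platelet-derived growth factors, in U87 (39.5, 40.6 and 41.8 against 0.2, 0.552 and 0.696 CPM). CDKN1A, the cell-cycle inhibitor p21, was higher in U87 (-0.66 ± 0.20, adjusted p = 0.013), and MDM2, a ubiquitin ligase, was higher in U251 (0.55 ± 0.11, adjusted p = 0.00068). IDH2, a mitochondrial isocitrate dehydrogenase (-1.53 ± 0.12), and telomerase TERT (2.82 against 0.464 CPM) were higher in U87, and CDK6 was higher in U251 (297 against 71.8). CDKN2A, CDKN2B, CDKN2C, CCND2, MYCN, FAF1 and the DNA repair gene MGMT had 0 counts in all 6 libraries.

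**Figure D3:**
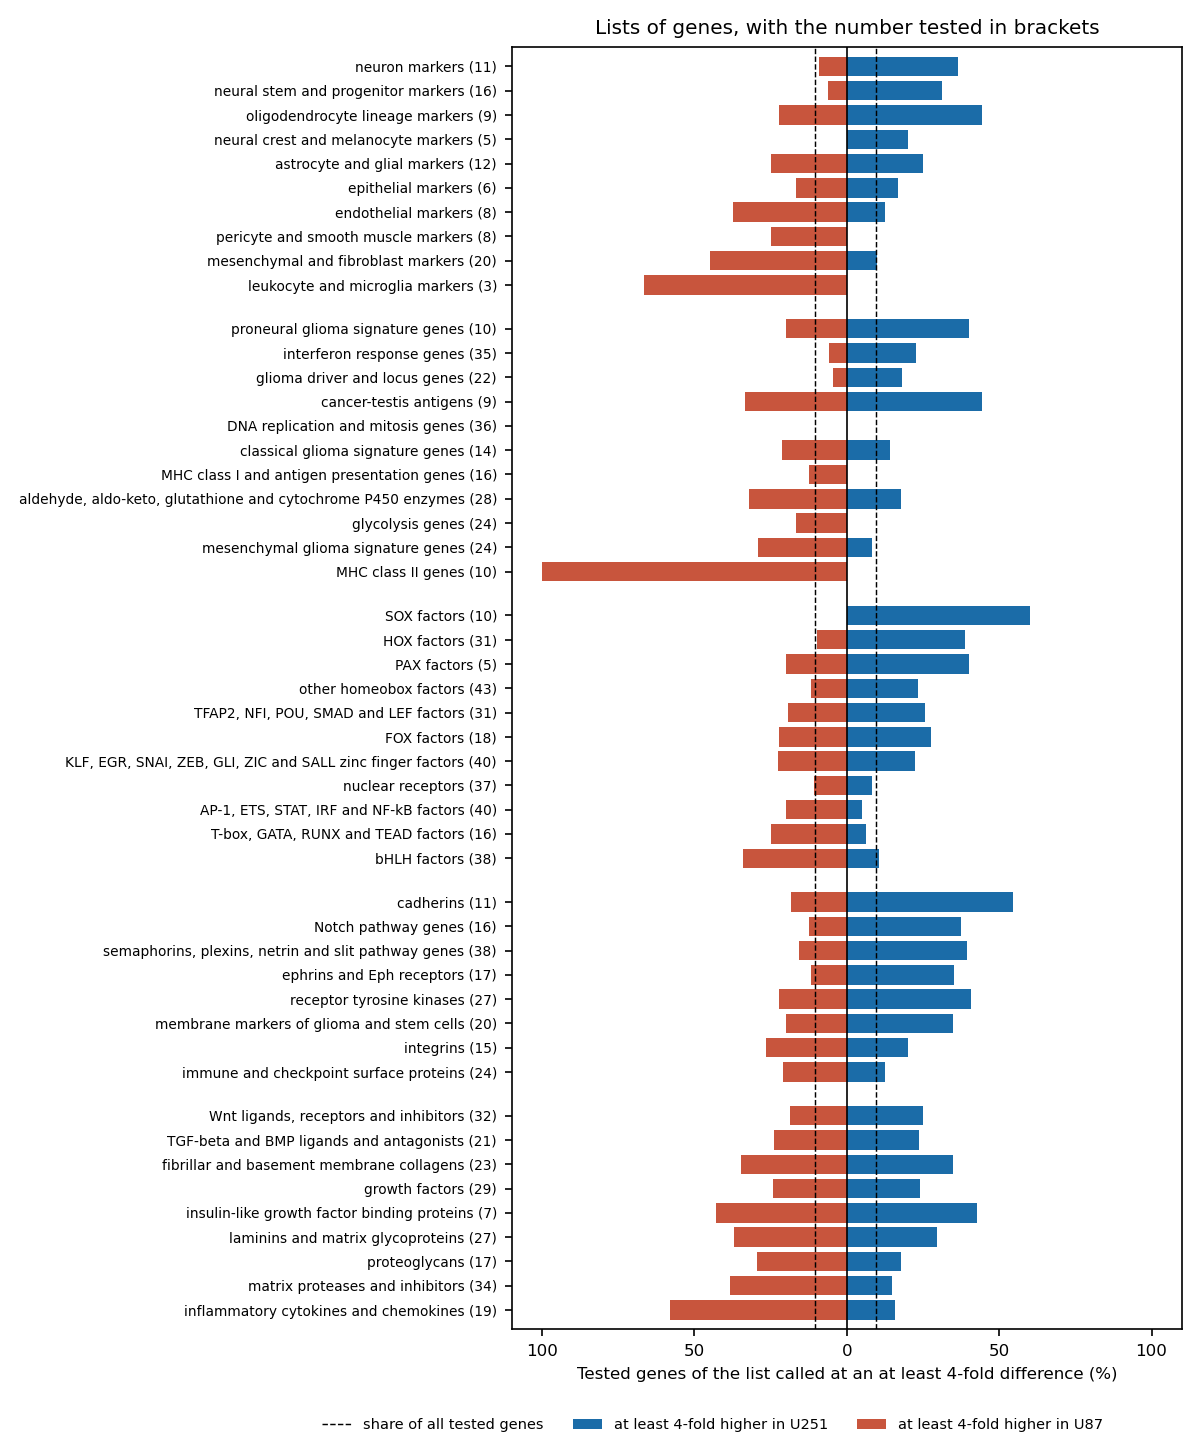
For the lists of genes shown the bars give the share of tested members called at an at least 4-fold difference, to the right (blue) for U251 and to the left (red) for U87, with the number of tested members in brackets. Dashed lines mark the shares over all tested genes, 9.43% and 10.4%. MHC class II genes stand wholly on the U87 side, SOX factors on the U251 side, and replication and mitosis genes have no member at 4-fold.

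Transcription factors of the lists were tested at 309 of 427 matched genes, of which 119 were higher in U251, 125 in U87 and 38.5% differed at least 4-fold, beside 19.8% of all tested genes. The SOX family lay on the side of U251, with 8 of 10 tested genes higher there, 6 of them at least 4-fold, and 2 higher in U87 (median 3.52). Besides SOX2 these were SOX3 (36.7 ± 2.55 CPM against 0 counts), SOX21 (59.4 against 0.0578), SOX9, SOX5 (21.3 against 1.93), SOX4, SOX13 and SOX18. SOX12 (64 against 28 CPM) and SOX15 (-0.92 ± 0.37, adjusted p = 0.046) were the 2 members higher in U87, and the call of SOX15 was lost when any 1 control library other than U251 library 2 was left out (0.072 to 0.14). Further factors with counts in U251 and none in U87 were the forkhead pioneer FOXA1 (43.4 ± 1.5), the homeobox factor IRX1 (30.8 ± 2.27), the neural stem cell receptor NR2E1 (18.1 ± 0.782) and the ETS factor FLI1 (15.7 ± 2.72).

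U87 had its own set of factors without a count in U251. After FOXD1 came FOXC2, a mesenchymal forkhead factor (51 ± 1.4 CPM), GLI2, TBX18, a T-box factor of the mesoderm (26.1 ± 2.43), the bHLH repressor MSC (25.6 ± 1.83) and PPARG, the receptor that drives fat cell formation (17.6 ± 0.582). Of 38 tested basic helix-loop-helix factors 17 were higher in U87 and 10 in U251. At 4-fold were 13 and 4 of them, beside 10.4% and 9.43% of all tested genes. Among those higher in U87 were the oxygen-regulated EPAS1 (442 against 48.8 CPM) and HIF1A (1117 against 514), and AHR, the dioxin receptor, at 69.8 against 0.229 (301-fold (95% interval 168 to 603)). AP-1, ETS, STAT, IRF and NF-kB factors were higher in U87 at 22 of 40 genes and in U251 at 9. STAT6, the mediator of interleukin 4 signals, had 65.7, 74.1 and 77 CPM in U87 and 0, 0.123 and 0 in U251, whereas STAT3 was higher in U251 (188 against 88.5). Both PAX3 (6.82 CPM in U87) and PAX7 (5.27 CPM in U251), paralogs of the dorsal neural tube, had 0 counts in the line that lacked them.

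HOX genes, which mark position along the body axis, were expressed in both lines, although most regions of the forebrain do not use them. Of 39 genes 31 were tested, 17 higher in U251 and 8 in U87, 12 and 3 at 4-fold. The summed FPKM (fragments scaled by gene length and library size, as deposited) of the HOXD cluster was 37.6 ± 0.189 in U251 and 15.2 ± 1.15 in U87, of HOXC 28.0 ± 1.43 and 9.64 ± 1.49, of HOXA 11.2 ± 0.306 and 3.08 ± 0.397, and of HOXB 26.6 ± 1.18 and 21.5 ± 0.795 (mean ± SD, n = 3). All 4 means were larger in U251 by more than the SD of either group, HOXB by the smallest factor. Within the clusters some genes were far higher in 1 line, while 6 of the 31 tested were not called. HOXC10 (9.87 ± 0.286 against 0.0383 ± 0.0201 FPKM), HOXC13 (10.1 ± 0.771 against 0.0323 ± 0.0363) and HOXA7 (5.77 ± 0.274 against 0.0265 ± 0.023) belonged to U251. HOXB2 was the strongest HOX transcript of U87 at 15.5 ± 0.544 FPKM, with 0.136 ± 0.0278 in U251. Antisense genes overlap these clusters, and whether the counting used strand is not given in the sources used here.

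**Figure D4:**
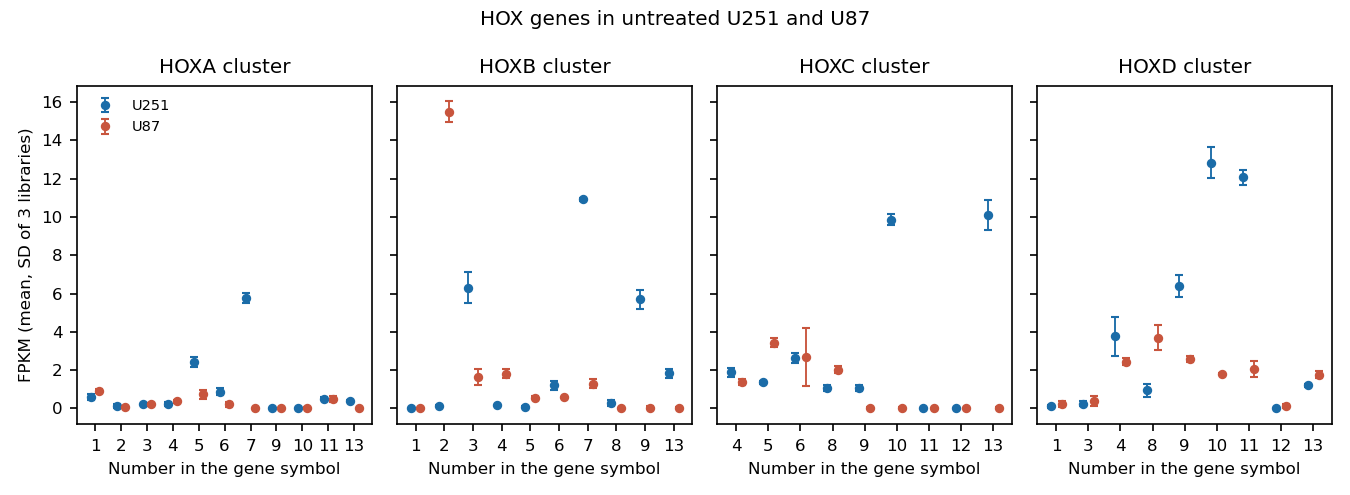
FPKM of the HOX genes of the 4 clusters by the number in their symbol, mean and SD of 3 control libraries, U251 in blue and U87 in red. U251 is above U87 at HOXA7, HOXB7, HOXC10, HOXC13, HOXD10 and HOXD11, and U87 is above U251 at HOXB2, HOXB4 and HOXD8.

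Surface genes differed more often than genes at large: of 166 tested of 208, 85 were higher in U251, 55 in U87 and 51.8% differed at least 4-fold, beside 19.8% of all tested genes. The lists were drawn up with results of these data known, so the shares describe them and no more. EPHA3, a receptor of ephrin-A ligands, had 389, 409.8 and 419 CPM in U251 and 0, 0.123 and 0.0643 in U87 (3 counts in all). ITGB4, the integrin chain of hemidesmosomes, had 909, 877 and 833 CPM against 0.751, 0.613 and 0.514, a ratio of 1384-fold (95% interval 975 to 2037), and its partner ITGA6 followed at 79.2 against 3.44. ITGB8, which releases active TGF-beta, stood at 1193 against 2.41 CPM. On the side of U87 were the fibronectin receptor chain ITGA5 (1717 against 152) and ITGB3 (238 against 13.6), while ITGB1, the chain shared by many integrins, had 779.8 and 766 CPM and was not called.

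Cell adhesion and guidance receptors were assorted in the same way. Cadherins were higher in U251 at 7 of 11 tested genes, with CDH10 (11.5 ± 1.31 CPM), CDH6 (7.42 ± 0.469) and CDH3 at 0 counts in U87 and CDH4 at 262 against 2.25 CPM. CDH13, the anchored T-cadherin, was higher in U87 (295 against 139). Receptor tyrosine kinases were higher in U251 at 16 of 27 and in U87 at 9. FGFR2, FGFR3 and ERBB4 had 0 counts in U87 at 1.79, 4.4 and 2.96 CPM in U251, IGF1R had 258 against 40.7, and FGFR1 had 253 CPM in U87 against 31.1. Of the guidance genes, the netrin receptor UNC5D (9.27, 4.17 and 8.48 CPM) and ROBO2 had no count in U87, whereas UNC5B (28.6, 34.1 and 34.3 against 0.467, 0.123 and 0.19) and the semaphorin SEMA7A (299, 312 and 383 against 4.93, 4.91 and 6.77) were higher there. Notch pathway genes were higher in U251 at 11 of 16 and in U87 at 2, NOTCH3 (55.6, 62.7 and 57.7 CPM in U87 against 0.4, 0.123 and 0.19) and NOTCH4. Immune ligands and receptors were divided too, with PD-L1 (CD274, 74.7 against 15.4 CPM) and CD70 (267 against 38.7) higher in U251, and the receptor CD40 (7.25 ± 1.37 CPM against 0 counts), the NKG2D ligand ULBP1 (6.12, 5.52 and 7.91 against 0.0667, 0 and 0) and the adenosine-producing enzyme NT5E (878 against 109.8) higher in U87.

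Of 209 tested secreted genes 56.5% differed at least 4-fold, 50 in favour of U251 and 68 of U87, beside 19.8% of all tested genes. This was the largest share among the 5 kinds of list, which were drawn up with results of these data known. Genes can pass the filter on low values through 1 line alone, and the part of this in the share was not tested. Collagens were split evenly, with 11 of 23 tested genes higher in U251 and 11 in U87, 8 and 8 at 4-fold. The basement membrane chains COL4A1, COL4A2 (242 against 14 CPM), COL4A5 (169 against 19.7) and the fibril-associated chain COL12A1 (774 against 92.7) were higher in U251. The type VI chains COL6A3 (3682 against 4.81), COL6A2 (1627 against 77.6) and COL6A1, together with COL1A1 and COL7A1 (287 against 3.87), were higher in U87. Other matrix genes of U251 were EFEMP1, a fibulin with 136, 142 and 140.4 CPM against 1 count in U87, and thrombospondin THBS1 (1205 against 1.42). Proteoglycan DCN (82.9, 79.4 and 77 CPM in U87 against 0, 0.123 and 0) and nidogen NID2 (87.4 against 0.25) stood on the other side, with the first nidogen, NID1, opposite to its paralog (114 in U251 against 0.446).

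Proteases and their inhibitors were higher in U87 at 21 of 34 tested genes and in U251 at 9, with the gelatinase MMP2 at 1374 against 61.8 CPM, stromelysin MMP3 at 286 against 3.04, and the plasminogen activator inhibitor SERPINB2 at 69.1 ± 4.78 against 0 counts. Ligands separated the lines gene by gene. U251 had PDGFD (31.9 ± 0.811 CPM), the Wnt antagonist SFRP1 (33.9 ± 2.95) and the bone morphogenetic protein GDF6 (23.7 ± 1.21), all at 0 counts in U87, and far more of the Wnt inhibitor DKK1 (1636 against 14.9) and of the YAP target CTGF (2500.5 against 28.2). U87 had the bone morphogenetic protein antagonist GREM1 (175, 153 and 194 CPM against 0, 0 and 0.127), the EGF receptor ligand EREG (164 against 0.25), WNT7B (324 against 0.394), the nerve growth ligand GDNF (15.6 ± 1.22) and HGF (13.4 ± 1.25), these last at 0 counts in U251. HGF was thus counted in U87 alone while its receptor MET was not called. All 7 tested IGF binding proteins were called, 4 higher in U251 with IGFBP2 first (169.7 against 0.122 CPM), and 3 in U87. VEGFA, which induces vessel growth, had 619.5, 683 and 681 CPM in U87 and 57.7, 58.2 and 55.3 in U251 (-3.51 ± 0.22).

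Inflammatory cytokines and chemokines were higher in U87 at 14 of 19 tested genes and in U251 at 4 (median -2.78), beside 32.3% and 32.5% of all tested genes. CSF3, the granulocyte growth factor, had 1050.4, 1065 and 1138 CPM in U87 and 0.533, 0.0614 and 0.507 in U251, a ratio of 2999.9-fold (95% interval 1874 to 5150.1). IL1B (38.7 against 0.166 CPM), CXCL2 (51.8 against 3.75) and IL6 (22.9 against 1.82) went the same way, and CCL2 went the other way (9.61 in U251 against 0.48). CXCL8, which encodes interleukin 8, had 141 and 142 CPM and was not called. Interferon response genes were higher in U251 at 19 of 35, in U87 at 5, and not called at 11. BST2, which tethers budding virions, led in U251 with 52.4, 49.5 and 65.6 CPM against 0.0578, 0 and 0.45, followed by the small mitochondrial protein IFI27 (32.1 against 0.405) and the RNA sensor IFIT1 (36.6 against 3.72). OASL, a relative of the antiviral oligoadenylate synthetases, led in U87 (17.7, 21.5 and 21.7 against 1.4, 0.982 and 0.507), and the regulators STAT2, IRF1 and IRF9 were not called.

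Antigen presentation genes were mostly higher in U87. MHC class I molecules show peptides from inside the cell, class II molecules show ingested peptides on professional presenting cells, and the class II genes are switched on together by the coactivator CIITA through a shared promoter module that includes a reversed CCAAT box. Of 16 tested class I genes 11 were higher in U87 and 1 in U251, with HLA-B at 249.7, 284 and 268 CPM in U87 and 17.6, 18.3 and 20.3 in U251 (-3.81 ± 0.09) and the inducible proteasome subunit PSMB9 at 14.6, 18.2 and 15.1 against 0.267, 0.552 and 0.507. The single member higher in U251 was the loading chaperone TAPBP (0.52 ± 0.13). All 10 class II genes tested, of 11 listed, were at least 4-fold higher in U87, beside 10.4% of all tested genes. Members at or near 0 counts in U251 passed the filter on low values through U87, so they could not have been higher in U251. The count of 10 was thus partly fixed in advance. CIITA had 48.1, 49.6 and 55.7 CPM in U87 and 1.07, 0.552 and 1.01 in U251 (-5.83 ± 0.33). The invariant chain CD74 had 166, 172 and 137 CPM in U87 and HLA-DRB1 128, 139.7 and 137, both with 0 counts in U251 (at least 827-fold and 706-fold). HLA-DRA, the partner chain of HLA-DRB1, had 66.9 CPM against 0.0422. Reads can be shared among HLA paralogs, so the split between them is uncertain. Of the leukocyte and microglia list, 8 of 16 genes had no count in either line and PTPRC was near 0 in U87, while CD68 and CSF1R were higher in U87 and made up most of the list's sum of 76.2 to 120.5 CPM there, against 2.41 to 4.42 in U251. Their part in the class II result was not tested.

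The promoters of class II genes are shown because these genes were all higher in the same line. Listed starts in RefSeq (build GRCh38.p14) were found for 8 of the 10 tested class II genes, in 9 windows of 250 bases before the start. The letters CCAAT, read on either strand (CCAAT or ATTGG), stood in 7 of these 9 windows and in 32.0% of all 35116 listed windows of that length. Counted by gene, they were found for 7 of the 8 and for 42.0% of the 10656 tested protein-coding genes with a listed start. Capitals mark these letters in the 4 windows printed 5′ to 3′, at chr5:150412911-150413160, minus strand for CD74, chr6:32589849-32590098, minus strand for HLA-DRB1, chr6:32637156-32637405, plus strand for HLA-DQA1 and chr6:33075740-33075989, plus strand for HLA-DPB1. In HLA-DRB1 the reversed letters began 46 bases before the start, in HLA-DQA1 68, in HLA-DPB1 99 bases before it, and in CD74 the forward letters began 53 bases before it. A match of letters is a description of sequence and not a bound site.
CD74: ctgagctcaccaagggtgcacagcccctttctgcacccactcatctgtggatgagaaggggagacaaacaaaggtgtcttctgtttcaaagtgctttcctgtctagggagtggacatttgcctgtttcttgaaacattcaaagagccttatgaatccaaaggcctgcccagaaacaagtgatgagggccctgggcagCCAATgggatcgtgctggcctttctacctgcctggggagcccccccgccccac
HLA-DRB1: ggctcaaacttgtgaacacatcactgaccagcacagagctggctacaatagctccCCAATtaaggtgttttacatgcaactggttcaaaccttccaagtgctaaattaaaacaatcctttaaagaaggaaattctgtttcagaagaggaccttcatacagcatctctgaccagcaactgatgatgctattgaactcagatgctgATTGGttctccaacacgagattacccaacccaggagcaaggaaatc
HLA-DQA1: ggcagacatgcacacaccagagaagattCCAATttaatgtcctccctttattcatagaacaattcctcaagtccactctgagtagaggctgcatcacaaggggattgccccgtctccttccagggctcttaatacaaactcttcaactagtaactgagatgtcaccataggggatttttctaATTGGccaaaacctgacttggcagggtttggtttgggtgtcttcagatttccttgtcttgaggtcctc
HLA-DPB1: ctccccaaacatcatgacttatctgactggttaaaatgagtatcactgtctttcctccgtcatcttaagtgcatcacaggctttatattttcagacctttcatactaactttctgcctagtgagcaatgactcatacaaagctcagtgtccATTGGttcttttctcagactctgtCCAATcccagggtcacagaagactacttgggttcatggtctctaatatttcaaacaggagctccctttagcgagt

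Glycolysis genes were higher in U87 at 18 of 24 and in U251 at 3, with a median of -0.69, beside 32.3% and 32.5% of all tested genes. At 4-fold were 4 of them, all in favour of U87. The largest differences were ALDOC, given above, and LDHA, the lactate dehydrogenase chain that favours lactate, with 1883, 1559.7 and 1749 CPM in U87 and only 21.7, 23.8 and 21.7 in U251 (-6.25 ± 0.13, adjusted p = 1.3e-11). The other chain, LDHB, was also higher there and had 759 CPM in U87 and 402 in U251, and GPI was higher in U251 (0.71 ± 0.11). Replication and mitosis genes had 13 members higher in U251, 12 in U87 and 11 not called, shares near those of all tested genes, and none differed 4-fold, beside 19.8% of all tested genes. Mitotic TOP2A (1.02 ± 0.07) and CENPF (1.01 ± 0.09) were higher in U251, and the replicative helicase subunits MCM5 (-1.44 ± 0.10) and MCM6 (-1.15 ± 0.09) in U87. MKI67, the common proliferation marker, had 315, 324 and 295 CPM in U251 and 204, 419 and 215 in U87 and was not called (0.18 ± 0.22). Without U87 library 2, the highest of its group, it was called higher in U251 (0.60, adjusted p = 0.00041).

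Aldehyde, aldo-keto, glutathione and cytochrome P450 enzymes were higher in U87 at 15 of 28 tested genes and in U251 at 7, 9 and 5 of them at 4-fold (median -0.68), and some close paralogs lay on opposite sides. GSTM3, a glutathione transferase, had 58.6 ± 2.74 CPM in U251 and 0 counts in U87, and its near relative GSTM1 had 15.8 ± 0.825 CPM in U87 against 3 counts in U251. NQO1 was higher in U251 (938 against 146 CPM), and the retinal dehydrogenase ALDH1A3 (339 against 37.2) and CYP1B1 (238 against 3.27), a target of the dioxin receptor, in U87. Of the cancer-testis antigens 9 of 36 listed were tested, 5 higher in U251 and 3 in U87. MAGEA3 had 83.7, 41.7 and 52.7 CPM in U251 against 0.173, 0.674 and 0.45, and MAGEC2 6.58, 8.27 and 7.85 CPM in U87 against 0 counts. The GSTM and MAGE families hold near-identical copies, so the counts of single members are uncertain.

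Differences also varied by position in the genome. By chromosome, the median log2 difference ran from -0.68 on chromosome 14, -0.63 on 21 and -0.55 on 22 to 0.30 on 7 and 0.60 on 6, against -0.003 over all tested genes. On chromosome 14, 342 of 573 tested genes were higher in U87 and 74 in U251, and on chromosome 6, 471 of 875 were higher in U251 and 159 in U87. By windows of 10 Mb, 300 with at least 10 tested genes, the lowest medians lay on chromosome 14 from 70 to 100 Mb (-1.09, -1.14 and -1.21) and on chromosome 18 from 30 to 40 Mb (-1.15). The highest were 1.88 on chromosome 6 from 70 to 80 Mb, where 29 of 35 genes were higher in U251, 1.88 on chromosome 9 from 10 to 20 Mb, and a pair of windows from 20 to 30 Mb on chromosomes 9 and 19, whose medians rest on genes at 0 counts in U87. Neighbouring genes without counts were then sought. Runs of at least 3 neighbouring tested protein-coding genes that had counts in 1 line and at most 3 counts in the other numbered 19 with 124 genes for U87 and 12 with 40 genes for U251. The run of 5 genes missing from U251 counts was the class II block from HLA-DRA to HLA-DQB1 (chromosome 6, 32439842 to 32668383).

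The 9p21 region gave 1 of the U87 runs. Between 20341665 and 22455740 on chromosome 9, every gene that U251 expressed had 0 counts in U87: FOCAD, a focal adhesion gene, with 118 CPM in U251, KLHL9 with 157, MTAP, which recycles methylthioadenosine, with 91.5, 86.6 and 82.6 in its 3 libraries, DMRTA1 with 34.6, and MLLT3 with 17. CDKN2A and CDKN2B, which lie between MTAP and DMRTA1, had 0 counts in both lines. The nearest genes outside with counts in U87 were SLC24A2, with 1022 counts in U87 and 2 in U251, and ELAVL2, with 198 and 203. RNA counts alone cannot tell a missing locus from a silent one.

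Zinc finger genes of chromosome 19, a large family of DNA-binding repressors that lie in tandem clusters, were low in U87. Of 254 ZNF and ZFP genes listed there 233 were tested, and 174 were higher in U251 against 15 in U87, with 125 and 5 at 4-fold. As many as 100 of the 233 had at most 3 counts over the U87 libraries, against 4 over those of U251. Of the 243 tested family members on other chromosomes, 93 were higher in U251 and 57 in U87, and 16 had at most 3 counts in U87. The remaining 915 tested genes of chromosome 19 went slightly the other way, 208 to 317. The longest run held 27 neighbouring genes, from ZFP14 to ZNF573 (chromosome 19, 36334453 to 37817300), with 0 counts in all U87 libraries and 26.4 CPM at ZNF260 and 25.5 at ZNF585B in U251. A gene with counts in U251 alone passed the filter on low values through U251, so the members tested could not be lower there. Similar paralogs share sequence, and the splitting of reads among them is not described in the sources used here.

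**Figure D5:**
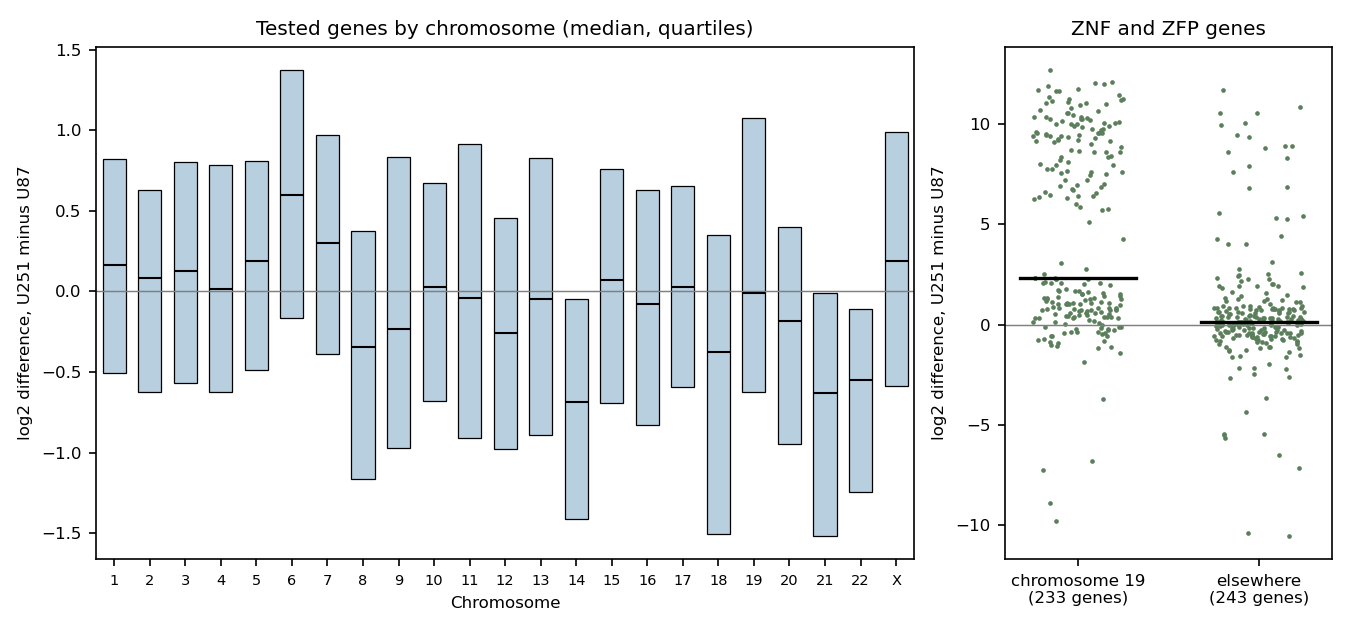
Left, the log2 difference (U251 minus U87) of the tested genes of each chromosome as median and quartiles. Right, each ZNF or ZFP gene as a point with the median as a bar, on chromosome 19 and elsewhere: an upper cloud of genes near 0 counts in U87, whose fitted values depend on the prior count, is denser on chromosome 19.

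Some non-coding genes separated the lines too. lincRNA genes differed at least 4-fold at 38.9% of 701 tested, 100 in favour of U251 and 173 of U87, and protein-coding genes at 19.3% of 13587. Antisense genes did so at 20.7% of 904 tested, 76 in favour of U251 and 111 of U87, near the 19.8% of all tested genes. Low genes can pass the filter on low values through 1 line alone, and the part of this in the lincRNA share was not tested. In U251 LINC00707 had 97.1, 97.7 and 105 CPM against 0 counts and AL161431.1 had 382, 381 and 394 against 0.578, 0.368 and 0.386, followed by LNCAROD (22.6 CPM) and AL590004.3 (83.8). U87 had AC079949.2 (31.2 ± 2.07 CPM) and LINC01444 (30.5 ± 2.28) without a count in U251, and ZMIZ1-AS1 (48.5, 49.3 and 48.3 against 0.0667, 0.184 and 0.0633) and AC003092.1 (44.5 against 0.104). Functions of most of these are not given in the files.

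The artesunate libraries gave the same line contrast in other samples, although the doses differed between the lines and the effect of line and dose cannot be told apart there. Of the 3400 genes at 4-fold in the controls, 3098 (91.1%) were called in the same direction under artesunate, 27 in the opposite direction and 275 were not called. At 4-fold in both were 2664 genes, 78.4% of the 3400 and 67.7% of the 3933 called at 4-fold under artesunate. Of all 11115 called genes 7101 (63.9%) were called in the same direction, 1622 in the opposite direction, and 2392 were not called. Under artesunate 12378 of the 17150 tested genes were called, of which the 7101 made up 57.4%. With so many calls, matches are common, and the shares above are to be read against that number. SOX2, FOXD1, CD74, HLA-DRB1, NEFL and MTAP kept their side. MCM5, MDM2, EGFR, SOX12 and SOX15 were called on the opposite side under artesunate.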

How the data were processed

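Polyadenylated RNA of 12 libraries in 4 groups of 3 was sequenced. Per the submitters' processing notes, the authors used fastp, HISAT2 2.1.0, StringTie 1.3.3b and edgeR 3.30.3 with the GRCh38 genome and annotation release 91. The deposited table holds counts per gene and FPKM, which the authors computed after TMM normalization, per the submitters' processing notes. The counting step, its strand setting and its treatment of shared reads are not given in the sources used here.

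From the counts, CPM were computed per library and edgeR 4.0.16 (R 4.3.3) was fitted over all 4 groups with TMM scaling, no covariate, and filterByExpr with a minimum count of 10 and a total of 15. The quasi-likelihood test of U251 against U87 controls was adjusted over all 17150 genes by Benjamini and Hochberg, and the threshold was 0.05. FPKM served for levels per length. On simulated data the fit recovered 195 of 200 genes changed 4-fold, in equal numbers up and down and with a single spread for all genes. Far fewer genes differed there than between the lines, so the simulation does not cover the setting of these data. Alternatives were other fits (DESeq2 1.42.0, limma 3.58.1, a replicate block), scalings, filters and each control library left out.

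Genes were named by rule: the 8 largest differences per direction, 6 per direction among genes at 0 counts in 1 line, 6 per direction from the transcription factor, surface and secreted lists, the leading members of each marker or programme list, 17 glioma genes whatever their values, and 4 non-coding genes per direction. Some genes and 1 list that the rule names are not reported here. Other genes named were chosen after their values were seen. The comparison and the 50 lists were chosen with earlier results of these data known.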

Additional observations from a re-analysis of the deposited data

Results flagged for a closer look

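At 5 of the genes named above the line difference under artesunate (180 µM in U251, 24.08 µM in U87) had the opposite direction to that in controls, and an interaction term in edgeR's quasi-likelihood fit was called for each. That term is the difference of the same line contrasts, so its call adds no separate evidence. It was called at all 1622 genes that were called in opposite directions. MCM5, the replicative helicase subunit, was at a log2 difference (U251 minus U87) of -1.44 in controls and 0.99 under artesunate (adjusted p of the interaction = 8e-07). MDM2, a ubiquitin ligase, was at 0.55 in controls and -1.24 under artesunate (5.8e-06). EGFR, the growth factor receptor, was at -0.25 in controls and 0.28 under artesunate (0.00058). SOX12 went from -1.17 to 1.22 (2e-05) and SOX15, another SOX factor, from -0.92 to 0.967 (0.013). Both calls of SOX15 lay near the threshold, at adjusted p = 0.046 in controls and 0.048 under artesunate in that fit. Its control call was lost when any 1 control library other than U251 library 2 was left out. Line and dose cannot be told apart in the artesunate libraries.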

How the results depend on the processing

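Counts of called genes stayed within 1.5 times under DESeq2 (5603 higher in U251, 5651 in U87), with only the 6 control libraries fitted (5703 and 5758), without a filter (5549 and 5937) and with the total count as scaling (5431 and 5689). Limma-trend on log2(FPKM + 1) called 316 genes at 4-fold in U251 and 451 in U87, against 1618 and 1782. A pseudocount of 1 shrinks the differences of low genes by construction. At 5 CPM in place of 1 CPM, genes with counts in 1 line alone numbered 162 for U251 and 146 for U87, a stricter definition. With a replicate block 5502 and 5470 genes were called and 1618 and 1784 at 4-fold. Same-numbered libraries did not pair (r of deviations -0.035, 0.037 and -0.010). Of 2897 values of 207 named genes under alternatives, 2877 kept direction and call, 19 lost the call, at VIM (0.071 with the replicate block, otherwise as given above), FUT4, PROM1 and SOX15, and 1, MKI67, gained it. Of 700 list medians 6 changed sign, each in a different list; the collagen median went from 0.54 to -0.08 with only the control libraries fitted, and the cause was not tested. At 3 libraries per line and up to 17314284 counts each, levels under 0.173 to 0.200 CPM could not be told from 0.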
